A study of Aspergillus nidulans with 6 samples.

Results

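A set of 8 genes of siderophore synthesis, siderophore transport and iron regulation were followed in the filamentous fungus Aspergillus nidulans after deletion of mcrA. They were chosen by locus number from the 10983 features of the count tables, and all 8 were found. They are sidA (AN5823) and sidC (AN0607) of synthesis, mirA (AN7800), mirB (AN8540), mirC (AN7485) and sit1 (AN5378) of transport, and the regulator genes hapX (AN8251) and sreA (AN0176). RNA-seq had been run on 3 libraries of the mcrA-deleted strain LO8158 (genotype mcrA-) and 3 libraries of the WT strain LO1362 (genotype mcrA+). The submitters describe the deletion as one that switches on secondary metabolite production. Mycelium of both strains came from liquid glucose minimal medium with uridine, uracil, pyridoxine and riboflavin, after 1 day at 37 °C. The sources used here do not give the other alleles of the strains or the iron content of the medium. With 1 strain per genotype, the deletion cannot be told apart from whatever else distinguishes LO8158 from LO1362. The labels do not say that libraries of a group came from separate cultures, so the p-values cover only library-to-library spread, part of which may be technical.

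Siderophores are small iron-binding molecules that fungi secrete to capture ferric iron and also keep inside the cell to store it. A. nidulans lacks the reductive, permease-based route of high-affinity iron uptake found in many fungi, so it relies on siderophores when iron is scarce. All of its siderophores start with the hydroxylation of ornithine, after which separate peptide synthetases build an intracellular form, ferricrocin, and an extracellular form, triacetylfusarinine C. The regulators HapX and SreA oppose each other: HapX acts with the CCAAT-binding complex under iron starvation, where it holds down genes that consume iron, and SreA holds down iron acquisition when iron is sufficient. Each of the 2 also represses the gene of the other.

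Total counts lay between 3374534 and 4926520 in the mcrA-deleted libraries and between 4739323 and 6051839 in the WT libraries, and the 8 genes together held 0.101% to 0.121% of counts in the mcrA-deleted and 0.104% to 0.143% in the WT libraries. The mcrA feature (AN8694), whose locus number is background knowledge, had 280, 422 and 273 counts in mcrA-deleted replicates 1 to 3, against 674, 903 and 655 counts in WT replicates 1 to 3. The groups did not overlap, but the feature was empty in no mcrA-deleted library, and the sources used here do not say which part of the gene was deleted. Among the WT libraries replicate 3 stood apart, with a chi-square per degree of freedom of 54.1 and 46.1 against WT replicates 1 and 2. Between WT replicates 1 and 2 it was 9.97. The mcrA-deleted libraries also spread, at 16.5 for replicates 1 and 2, 30.8 for 1 and 3, and 18.1 for 2 and 3. Sampling noise alone gives about 1. In mcrA-deleted replicate 1, 1.06% of counts were mitochondrial, and at most 0.159% in any other library. Of 7 genes of asexual sporulation, which mark cells other than vegetative hyphae, 4 could be tested and 2 were higher in the mcrA-deleted libraries, as were 16.1% of all tested features. These were the sporulation regulator brlA (12, 28 and 56 counts, against 1, 2 and 2 in WT) and the spore pigment gene wA, which overlaps AN8208. The pigment gene yA averaged 9.34 CPM in the mcrA-deleted and 13.8 CPM in the WT libraries, and it and rodA did not pass. The summed level of the 7 ranged from 26.0 to 43.6 counts per 1000000 counts (CPM) in the mcrA-deleted libraries and from 17.02 to 25.9 CPM in WT, and the spore wall gene dewA had at most 1 count in any library. Their part in the results below was not tested.

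Among the 8 genes, 2 fell and 1 rose in the mcrA-deleted libraries (the plot of levels in each library shows all of their values). At an adjusted p under 0.05 in the quasi-likelihood test of edgeR, sidA and sit1 fell, mirC rose, and sidC, mirA, mirB, hapX and sreA did not pass. All 8 had enough counts to be tested. Over all 7852 tested features 29.8% were called, 16.1% higher and 13.7% lower, so 3 of 8 is near that background. These shares stand for 1265 features higher and 1078 lower with TMM scaling, and library size alone gave 1660 and 639. The groups did not overlap for 5 of the 8 genes, sidA, mirC, sit1, hapX and sreA, where 48.9% of all tested features were separated in this way. The median log2 fold change (mcrA-deleted over WT) was -0.15 over the 8 genes and 0.00214 over all tested features. The median absolute log2 fold change was 0.66 over the 8 genes and 0.41 over all tested features. In these bulk cultures fewer cells with a transcript and less transcript per cell cannot be told apart.

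**Figure D1:**
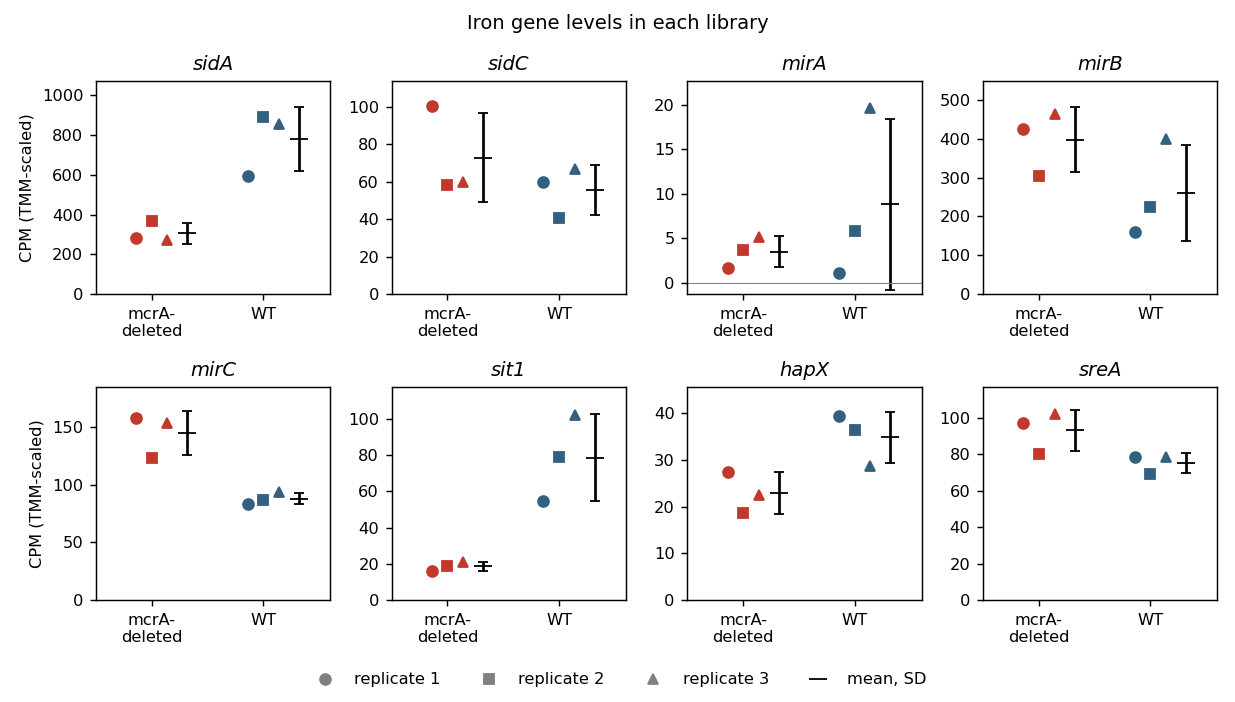
Level of each gene in every library, in CPM on TMM-scaled library sizes (y axis, a separate scale for each gene). Red points are mcrA-deleted and blue points WT, symbols mark replicate numbers, and bars give the mean and SD of 3 libraries. The groups are separated for sidA, mirC, sit1, hapX and sreA, and WT replicate 3 is the highest library for mirA at 19.6 CPM.

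The gene of the first siderophore enzyme fell. The sidA gene (chromosome I, 2141075 to 2142847, minus strand) encodes the ornithine monooxygenase that starts every siderophore of this fungus. Its level was 280.2, 367 and 271 CPM in mcrA-deleted replicates 1 to 3, against 595, 888 and 854 CPM in WT replicates 1 to 3. No mcrA-deleted library came near the WT range, and the lowest WT library was replicate 1. The mean was 306 ± 53.0 CPM in the mcrA-deleted libraries and 779 ± 160.1 CPM in WT (SD, n = 3 each). This was a log2 fold change of -1.35 (SE 0.22; edgeR quasi-likelihood adjusted p = 0.00494). Of all tested features, 12.4% changed by more than this in size. With any 1 library left out the fall stayed called, at log2 values from -1.51 to -1.25.

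The gene of the ferricrocin synthetase did not pass. The sidC gene (chromosome VIII, 2999413 to 3013926, plus strand) encodes the large peptide synthetase that assembles the intracellular siderophore. Its level was 100.4, 58.3 and 59.8 CPM in mcrA-deleted replicates 1 to 3, against 59.7, 40.7 and 66.6 CPM in WT replicates 1 to 3. The groups overlapped, and mcrA-deleted replicate 1 alone lay above all WT libraries. The log2 fold change was 0.39 (95% interval -0.24 to 1.01; edgeR quasi-likelihood adjusted p = 0.31), or 0.08 without mcrA-deleted replicate 1. The ratio of sidC to sidA within a library, which does not depend on how libraries are scaled, was 0.358, 0.159 and 0.221 in mcrA-deleted replicates 1 to 3, against 0.1004, 0.0458 and 0.0780 in WT replicates 1 to 3. The ratio was higher in every mcrA-deleted library than in any WT library. It was 3.27 times as high on average (log2 difference 1.71; SD 0.59 in mcrA-deleted and 0.58 in WT libraries). An exact two-sided permutation test of this difference had p = 0.1, the smallest value that 3 against 3 libraries allow. The p adjusted over the 3 ratios computed was also 0.1. Most of the 1.71 is the fall of sidA given above (log2 fold change -1.35), and sidC itself did not pass. The higher ratio is therefore not a result apart from that of sidA.

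Of the 4 transporter genes, 1 fell, 1 rose and 2 did not pass. All 4 encode membrane proteins of the siderophore-iron transporter family, which includes proteins that take up siderophores that carry iron. Whether each of the 4 does so was not tested. The largest change among the 8 genes was in sit1 (chromosome V, 2998761 to 3001428, minus strand), which is named like the Saccharomyces cerevisiae transporter of siderophores made by other organisms. Its level was 16.01, 18.9 and 21.3 CPM in mcrA-deleted replicates 1 to 3, against 54.7, 79.2 and 102.2 CPM in WT replicates 1 to 3. All mcrA-deleted libraries lay far below the WT libraries, which themselves spread widely. Its log2 fold change was -2.06 (SE 0.25; edgeR quasi-likelihood adjusted p = 0.00206), a fitted level of 23.9% of WT. Of all tested features, 7.04% changed by more than this in size. The call held with any 1 library left out, at log2 values from -2.27 to -1.83.

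The mirC gene (chromosome IV, 1695733 to 1698374, plus strand) rose. Its level was 157.6, 123 and 153 CPM in mcrA-deleted replicates 1 to 3, against 83.5, 86.8 and 93.3 CPM in WT replicates 1 to 3. The WT libraries lay close together, and all mcrA-deleted libraries were above them. Its log2 fold change was 0.72 (SE 0.14; edgeR quasi-likelihood adjusted p = 0.00874), a fitted level of 1.65 times WT, and the call held with any 1 library left out (0.65 to 0.82).

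The mirB gene (chromosome V, 804090 to 806301, plus strand) encodes the transporter of triacetylfusarinine C, the fungus's own secreted siderophore. Its level was 426, 304 and 464 CPM in mcrA-deleted replicates 1 to 3, against 159, 225 and 399 CPM in WT replicates 1 to 3. WT replicate 3 lay within the range of the mcrA-deleted libraries, and the other WT libraries lay below all of them. This gave a log2 fold change of 0.61 (95% interval -0.18 to 1.40; edgeR quasi-likelihood adjusted p = 0.209). Without WT replicate 3 it was 1.05 and passed, with adjusted p = 0.0172 in the same test (0.0172 to 0.45 over all 15 refits).

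The mirA gene (chromosome IV, 2727726 to 2730156, minus strand) encodes a transporter of enterobactin, a bacterial siderophore, and had the fewest counts of the 8 genes. It had 6, 19 and 25 counts in mcrA-deleted replicates 1 to 3, against 5, 35 and 81 counts in WT replicates 1 to 3. The groups overlapped only because WT replicate 1 lay below all mcrA-deleted libraries, while the other WT libraries lay above all of them. WT replicate 3 held 66.9% of the WT counts. This gave a log2 fold change of -1.27 with a wide 95% interval, -3.31 to 0.77 (edgeR quasi-likelihood adjusted p = 0.305). Without WT replicate 3 it was 0.02, so its direction rested on that library.

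The makeup of the 4 transporter transcripts, taken per length within each library, differed between the strains. Levels per length are CPM per kb of the feature's span from start to end, introns included. Of the summed level per length, sit1 made up 2.32%, 3.68% and 2.87% in mcrA-deleted replicates 1 to 3, against 16.5%, 17.8% and 14.6% in WT replicates 1 to 3. The mirB share was 71.3% to 75.5% in the mcrA-deleted libraries and 57.8% to 68.8% in WT. For both genes the groups were separate, in opposite directions. The shares are parts of the same sum, so a smaller sit1 share by itself raises the others. The higher mirB share is therefore not a result apart from that of sit1, and the mirB level itself overlapped between the groups. The mirC share overlapped, at 20.9% to 24.2% in the mcrA-deleted libraries and 13.5% to 25.4% in WT. These shares were computed after the values were seen and are given as a description.

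**Figure D2:**
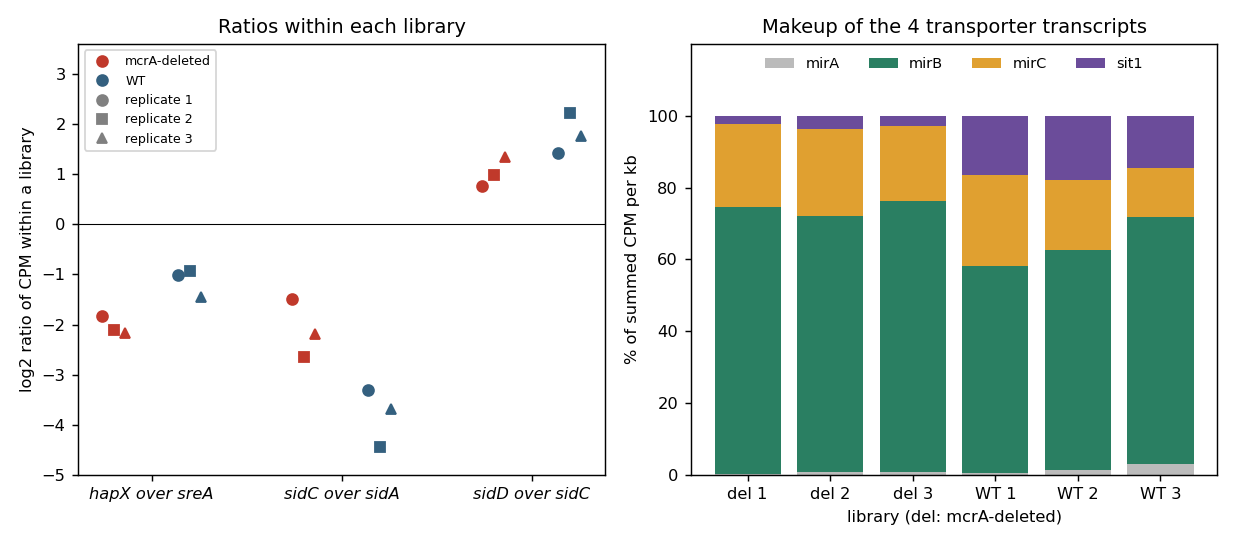
Left, log2 ratios of CPM between 2 genes within each library (y axis), red for mcrA-deleted and blue for WT, with symbols for replicate numbers. Right, the share of each of the 4 transporters in their summed CPM per kb, in percent, with 1 bar per library. The sit1 band is 2.32% to 3.68% of the sum in the mcrA-deleted libraries and 14.6% to 17.8% in WT.

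Neither regulator passed the test. Both were separated between the groups, in opposite directions, where 48.9% of all tested features were separated. The hapX gene (chromosome II, 1278110 to 1280045, minus strand) encodes the bZIP regulator of iron starvation. Its level was 27.5, 18.7 and 22.5 CPM in mcrA-deleted replicates 1 to 3, against 39.2, 36.4 and 28.6 CPM in WT replicates 1 to 3. No mcrA-deleted library reached the WT range, with a narrow gap between mcrA-deleted replicate 1 and WT replicate 3. For hapX the log2 fold change was -0.61 (95% interval -1.07 to -0.14; edgeR quasi-likelihood adjusted p = 0.055). It passed in 5 of the 15 refits, with adjusted p from 0.0104 to 0.182 over the 15 (edgeR or DESeq2). Among the 5 were those without WT replicate 3 (-0.73, edgeR adjusted p = 0.0274) and without mcrA-deleted replicate 1 (-0.76, 0.0407). Another had libraries thinned to equal depth (-0.69, edgeR adjusted p = 0.033). The lowest value, 0.0104, came from leaving out both mcrA-deleted replicate 1 and WT replicate 3. That refit was chosen after seeing the data.

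The sreA gene (chromosome VIII, 4363512 to 4366755, minus strand) encodes the GATA-type repressor of iron acquisition. Its level was 97.2, 80.5 and 102.0 CPM in mcrA-deleted replicates 1 to 3, against 78.7, 69.1 and 78.5 CPM in WT replicates 1 to 3. The mcrA-deleted libraries were all higher, but replicate 2 of that group exceeded WT replicate 1 by little. For sreA the log2 fold change was 0.31 (95% interval -0.01 to 0.62; edgeR quasi-likelihood adjusted p = 0.124). Where library size alone replaced TMM scaling, it was 0.48 and passed (adjusted p = 0.049 in the same test; 0.049 to 0.329 over all 15 refits). That scaling moved the median of all tested features to 0.175.

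The ratio of hapX to sreA within a library sets the opposing regulators against each other without any scaling between libraries. It was 0.282, 0.232 and 0.221 in mcrA-deleted replicates 1 to 3, against 0.499, 0.526 and 0.364 in WT replicates 1 to 3. Every mcrA-deleted library had a lower ratio than every WT library, and the mean log2 ratio was -2.04 ± 0.19 in mcrA-deleted and -1.13 ± 0.29 in WT libraries (SD, n = 3 each). The ratio was 0.533 times that of WT on average, with p = 0.1 in the exact two-sided permutation test, again the smallest possible. Because hapX was lower and sreA higher in every mcrA-deleted library, this separation and its p were fixed by the levels above. They are not a separate result. The log2 difference of -0.91 lay between -1.07 and -0.81 with any 1 library left out.

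**Figure D3:**
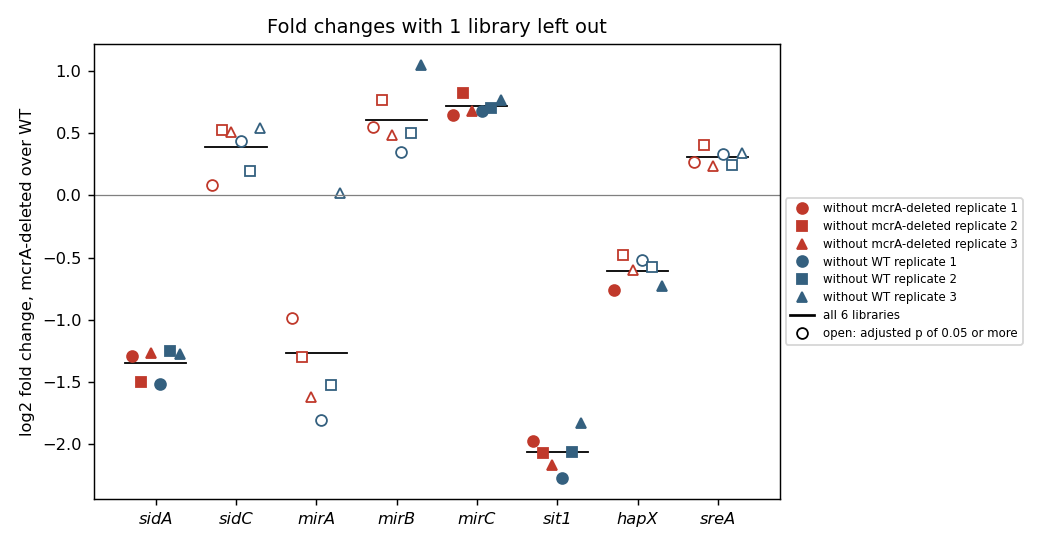
Log2 fold change of each gene (y axis, mcrA-deleted over WT) in fits that left out 1 library, with the fit of all 6 libraries as a black line. Red symbols leave out an mcrA-deleted library, blue symbols a WT library, and open symbols did not pass. The falls of sidA and sit1 and the rise of mirC were called in every such fit, while mirA moved to 0.02 and mirB to 1.05 without WT replicate 3.

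In level per length, the 8 genes spanned a wide range in both strains, and their order differed at the top. In the mcrA-deleted libraries mirB stood first with 180.0 ± 37.8 CPM per kb and sidA second with 172.6 ± 29.9 CPM per kb, and their ranges overlapped. In WT, sidA led with 439 ± 90.3 CPM per kb, and its lowest library, at 336, was above the highest mirB library, at 180.5 (mean 118 ± 56.0 CPM per kb). Below these, the order in the mcrA-deleted libraries was mirC (54.7 ± 7.08 CPM per kb), sreA (28.7 ± 3.48), hapX (11.8 ± 2.26), sit1 (7.02 ± 0.99), sidC (5.02 ± 1.65) and mirA (1.45 ± 0.70). All neighbours there were separate except sit1 and sidC. In WT it was mirC (33.2 ± 1.88 CPM per kb), sit1 (29.5 ± 8.90), sreA (23.2 ± 1.69), hapX (17.9 ± 2.85), sidC (3.84 ± 0.93) and mirA (3.63 ± 3.96). There mirC and sit1 overlapped, as did sit1 and sreA, and sidC and mirA. Thus sit1 stood above hapX in all WT libraries and below it in all mcrA-deleted libraries. In WT replicate 1 the gap was very small, at 20.5 CPM per kb for sit1 and 20.3 for hapX.

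**Figure D4:**
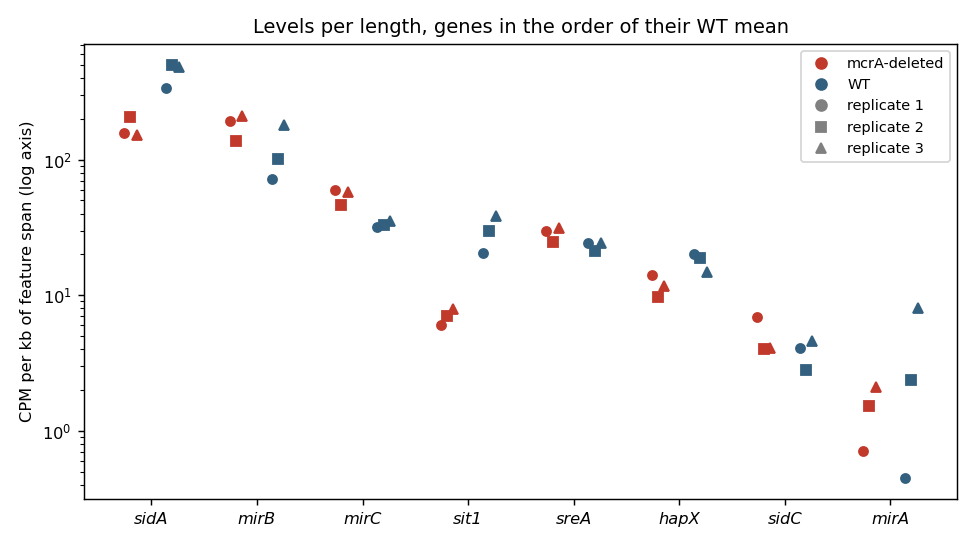
Level per length of the 8 genes, in CPM per kb of feature span on a log axis, in the order of their WT means. Red points are mcrA-deleted and blue points WT, and symbols mark replicate numbers. The sit1 points lie between 6.002 and 7.98 in the mcrA-deleted libraries and between 20.5 and 38.3 in WT.

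A list of 16 further genes of the pathway was measured beside these. It was written from background knowledge, with earlier results of these data known. All 16 could be tested; 3 rose, 4 fell and 9 did not pass, against 16.1% higher and 13.7% lower over all tested features. Their median log2 fold change was -0.30 (0.00214 over all tested features). The list holds enzymes and neighbours of synthesis, the CCAAT-binding complex, users of iron and enzymes of the precursors.

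Among 6 loci that hold siderophore synthesis genes or lie beside them or beside mirB, 3 fell, 1 rose and 2 did not pass. The peptide synthetase gene of the extracellular siderophore, sidD (AN6236), stood at 170, 115 and 152 CPM in mcrA-deleted replicates 1 to 3, against 161, 190.2 and 227 CPM in WT replicates 1 to 3. The groups overlapped (log2 fold change -0.41, 95% interval -0.86 to 0.05; edgeR quasi-likelihood adjusted p = 0.15). Its ratio to sidC was 1.69, 1.97 and 2.54 in mcrA-deleted replicates 1 to 3, against 2.69, 4.68 and 3.40 in WT replicates 1 to 3. All mcrA-deleted libraries were lower, by a log2 difference of -0.78 (exact two-sided permutation p = 0.1, the smallest possible). The gap was small between mcrA-deleted replicate 3 (2.54) and WT replicate 1 (2.69), and neither sidD nor sidC passed by itself.

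The genes sidH (AN6235) and sidI (AN0609), known in Aspergillus fumigatus to turn mevalonate into the acyl group of the extracellular siderophore, fell. For sidI the level was 20.3, 10.5 and 19.7 CPM in mcrA-deleted replicates 1 to 3, against 23.1, 42.0 and 59.1 CPM in WT replicates 1 to 3. The groups were separate, by little between mcrA-deleted replicate 1 and WT replicate 1. The log2 fold change was -1.30 (SE 0.38) for sidI and -0.85 (SE 0.24) for sidH, with edgeR quasi-likelihood adjusted p = 0.0395 and 0.034. These calls were not stable: with 1 library left out, sidI lost its call in 5 and sidH in 4 of 6 fits, with log2 values from -1.60 to -0.97 and from -1.04 to -0.59. The sidH call was also lost with all 6 libraries when scaled by library size alone (-0.66; adjusted p = 0.0566 in the same test). AN6234, next to sidH, did not pass (-0.59; adjusted p = 0.0522 in the same test), but it was called lower in 3 of the 15 refits, with DESeq2 (adjusted p = 0.0409), with no count filter (0.0479) and without WT replicate 1 (0.0215; 0.0215 to 0.174 over the 15).

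Beside sidC and mirB, which did not pass, 1 neighbour fell and 1 rose. AN0608, which lies 663 bp from sidC and between it and sidI, stood at 6.58, 9.16 and 6.55 CPM in mcrA-deleted replicates 1 to 3, against 13.7, 20.2 and 15.99 CPM in WT replicates 1 to 3. It fell (-1.16, SE 0.25; edgeR quasi-likelihood adjusted p = 0.0129; 0.0539 without WT replicate 2). AN8539, which lies 1464 bp from mirB on the other strand, stood at 66.6, 49.7 and 47.7 CPM in mcrA-deleted replicates 1 to 3, against 8.07, 10.9 and 15.02 CPM in WT replicates 1 to 3. It rose more than any of the other 23 genes (2.27, SE 0.25; adjusted p = 0.00167 in the same test), and its call held in all 15 refits. AN0606, on the other side of sidC, had 35 counts over the mcrA-deleted libraries and 0 over WT, which is at least 12.75-fold higher against a floor of 3 counts over the WT group, but it had too few counts to be tested. Of the 16 features next to the 8 genes, 10 could be tested, and AN0608 and AN8539 were the 2 called. Over all tested features 29.8% were called, so this count does not exceed the background. No other feature overlapped any of the 8 genes.

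Of the 3 subunits of the CCAAT-binding complex, hapC (AN4034) rose and hapB (AN7545) and hapE (AN6492) did not pass. The hapC level was 161, 156 and 173 CPM in mcrA-deleted replicates 1 to 3, against 111, 117 and 114 CPM in WT replicates 1 to 3. The rise was modest, with no overlap of the groups (0.52, SE 0.11, edgeR quasi-likelihood adjusted p = 0.0137). It was not called in the same test once WT replicate 1 (0.0549) or WT replicate 2 (0.0526) was left out. Over the 15 refits the adjusted p ran from 0.0013, with DESeq2, to 0.0549. Reads of hapC and hapE are uncertain where they overlap AN4035 and AN6493. The log2 fold change was 0.20 for hapB and 0.18 for hapE.

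Of 4 genes whose products contain iron or make haem, catB rose and 3 did not pass. The gene catB (AN9339) encodes a haem catalase of the mycelium. It stood at 3139, 4074 and 2399 CPM in mcrA-deleted replicates 1 to 3, against 793, 1002 and 804 CPM in WT replicates 1 to 3. All mcrA-deleted libraries exceeded all WT libraries by a wide gap (1.89, SE 0.25; edgeR quasi-likelihood adjusted p = 0.00271). The aconitase gene acoA (AN5525) had a log2 fold change of -0.38 (95% interval -1.24 to 0.49), the homoaconitase gene lysF (AN6521) one of -0.16 (-0.72 to 0.41), and hemA (AN2284), whose product starts haem synthesis, one of -0.61 (-1.17 to -0.05). Their groups overlapped, and none passed over all genes. Of these, acoA was called lower in only 1 of the 15 refits (-0.94, edgeR quasi-likelihood adjusted p = 0.0483, 0.0483 to 0.958 over the 15). That refit left out both mcrA-deleted replicate 1 and WT replicate 3, and was chosen after seeing the data.

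Of 3 genes of precursor supply, the arginase gene agaA (AN2901), whose product releases ornithine, fell. Whether that ornithine reaches SidA was not tested. The agaA level was 24.3, 21.4 and 13.9 CPM in mcrA-deleted replicates 1 to 3, against 103.6, 78.2 and 35.6 CPM in WT replicates 1 to 3. Levels spread in WT, but even its lowest library was above all mcrA-deleted libraries (-1.87, SE 0.40; edgeR quasi-likelihood adjusted p = 0.0128). The ornithine transaminase gene otaA (AN1810; -0.22) and hmg1 (AN3817; 0.21), which encodes the reductase that makes mevalonate and overlaps AN3816, did not pass.

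**Figure D5:**
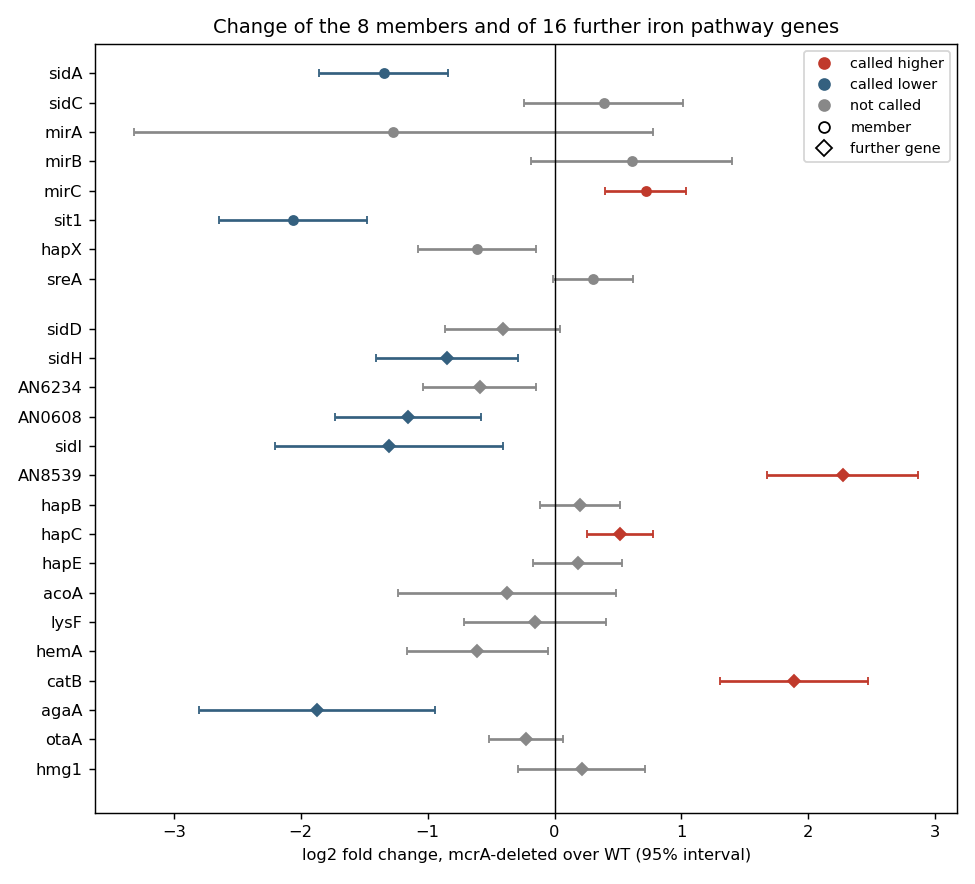
Log2 fold change (x axis, mcrA-deleted over WT) with its 95% interval for the 8 genes (circles) and the 16 further genes of the pathway (diamonds), by edgeR. Red marks genes called higher, blue genes called lower and grey genes not called. The largest fall is that of sit1 (-2.06) and the largest rise that of AN8539 (2.27).

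The genes most like each of the 8 over the 6 libraries were found by Pearson's r of log2(CPM + 1), as a description in which the strain difference itself takes a large part. They were AN5435 and AN4652 for sidA (r = 0.996 and 0.995), AN4951 and AN6168 for sidC (0.989 and 0.971), AN2050 and AN5948 for mirA (0.997 and 0.991), and AN3342 and AN12408 for mirB (0.985 and 0.983). For mirC they were AN8783 and AN2256 (0.998 and 0.995), for sit1 AN6085 and AN10175 (both 0.997), for hapX AN3231 and AN2771 (0.996 and 0.993), and for sreA pacC (AN2855) and AN6192 (0.995 and 0.993). None of the 8 genes or of the 16 further genes stood among these. The 3 called genes had many genes with r above 0.95 (200 for sidA, 205 for sit1 and 211 for mirC), and the 5 others had 74 (hapX), 21 (sreA), 19 (mirB), 12 (mirA) and 3 (sidC).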

How the data were processed

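Strand-specific libraries of polyadenylated RNA were sequenced on a MiSeq, per the labels. The deposited values are raw read counts per feature, 1 table per library with no normalization, per the file headers; CASAVA and HISAT (version 1) are named in the submitters' processing notes. Not given in the sources used here are the counting tool, its use of strand, the annotation release and the build. Coordinates are those of the tables. Counts were tested in edgeR 4.0.16 (R 4.3.3): filterByExpr with a minimum count of 10 (7852 features kept), TMM scaling, quasi-likelihood test, genotype as the only term, Benjamini-Hochberg adjustment over all tested features, two-sided. The procedure was tested on simulated data. CPM use TMM-scaled library sizes. Standard errors are the fold change over the root of its F statistic, and 95% intervals come from these and the test's degrees of freedom. Floors cover counting error only. DESeq2 1.42.0, other scalings and filters, thinning, the replicate block and left-out libraries were alternatives. Named genes are the 8 genes, mcrA, the 16 further genes, the adjacent AN-numbered feature on each side of each of the 8, the 2 genes most like each, and 7 sporulation markers. The genes and lists were chosen with earlier results of these data known. Symbols are from the lists or RefSeq (ASM1142v1, names only; 10029 features matched). Columns left unmapped numbered 0.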

Additional observations from a re-analysis of the deposited data

How the results depend on the processing

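The directions of sidA, sidC, mirB, mirC, sit1, hapX and sreA and the calls of sidA, mirC and sit1 held in all 15 refits. Over all features, 758 to 1496 were higher and 618 to 1171 lower with 1 library left out, and with library size alone 1660 were higher and 639 lower (1265 and 1078 with TMM). Of the 8 genes, 1 to 2 were higher with 1 library left out, and 2 with library size alone (sreA at 0.48 passed). Leaving out 1 library gave -1.80 to 0.0155 for mirA, 0.35 to 1.05 for mirB, and -0.76 to -0.48 for hapX, and 1 to 5 of the further genes were lower. Then lysF ranged from -0.41 to 0.0304, the highest without mcrA-deleted replicate 3. With libraries thinned hapX passed at -0.69. With mcrA-deleted replicate 1 and WT replicate 3 both left out, an alternative chosen after seeing the data, 2 of the 8 genes were higher, mirA stood at 0.30, mirB at 1.00 and hapX at -0.87 (both called), hmg1 at -0.12 and acoA at -0.94 (called). The cause was not tested. Replicate numbers shared by the groups were not treated as pairs, since pairing was not established. Deviations of same-numbered libraries correlated at 0.277, -0.0739 and 0.162, and not every library correlated best with its own number. With the replicate block 1333 features were higher and 1170 lower, hapX passed at -0.61 (adjusted p = 0.0485, edgeR) and sidI did not (adjusted p = 0.0527). The order of levels by coding length was not run, since no coding lengths were used here. Depth limits mirA most, with 50 counts over the mcrA-deleted and 121 over the WT libraries.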
